A study of Mus musculus with 6 samples.

Results

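Basal keratinocytes, the cells at the base of the epidermis that divide to renew the skin surface, were examined here for the genes that secrete, receive, block, relay and read out Wnt signals, the ligands themselves left aside. The 49 genes were taken by symbol from the 49671 genes of the deposited table. They hold 2 genes of ligand secretion, 13 receptors and co-receptors, 6 R-spondins and their receptors, 11 extracellular and membrane inhibitors, 7 genes of cytoplasmic transduction, 4 nuclear effectors and 6 feedback targets. Of these, 34 had enough reads to be tested and 15 did not.

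Wnt proteins are lipid-modified by Porcn in the endoplasmic reticulum and carried to the cell surface by Wls. Outside the cell they bind a Frizzled receptor together with Lrp5 or Lrp6, unless a secreted inhibitor of the Sfrp, Dkk or Wif family holds them or the co-receptor. Dishevelled proteins then disable the complex of Axin, Apc and Gsk3b that marks beta-catenin for destruction, and beta-catenin joins TCF/LEF factors at its target genes, several of which feed back to dampen the signal. The ubiquitin ligases Znrf3 and Rnf43 clear Frizzled from the membrane, and R-spondins acting through Lgr4, Lgr5 and Lgr6 lift that brake. In skin, Wnt signals are best known for building and cycling the hair follicle, and basal cells of the epidermis between follicles also express the target Axin2.

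The mice were of CD1, an outbred stock, in 3 groups: males, females and castrated males. The labels name no transgene, engineered allele or drug. Neither the age of the mice nor the age at castration is given in the sources used here. Each group had 2 libraries of polyA RNA, each from 100000 living ear epidermal cells sorted by flow cytometry. The gate asked for integrin alpha 6, carried by basal cells, and for absence of CD34, which marks the bulge of the hair follicle. As every library pooled 2 littermates, p-values speak for the spread between pools only, and litter and group cannot be told apart.

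The libraries held between 8412487 and 9648154 reads. Levels are given as CPM, reads relative to library size after scaling for composition, and levels of different genes are compared only as CPM per kb of annotated exon. In bulk RNA of sorted cells, fewer cells of a type and less RNA per cell cannot be told apart. Each fold change is a difference of log2(CPM + 0.5) with its standard error, and adjusted p-values are limma values with Benjamini-Hochberg adjustment over the 15413 genes tested. The threshold for a call was an adjusted p of 0.05.

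The 7 basal keratinocyte markers summed to between 41210 and 48668 CPM in the 6 libraries and none was called in any comparison. Within that list Krt15, Col17a1 and Itgb4 had both females below both males, at -0.71, -0.57 and -0.45 (unadjusted p = 0.0234, 0.0152 and 0.0064, and adjusted p = 0.136, 0.109 and 0.0705 by limma). The 5 sex chromosome genes checked followed the labels. The summed markers of dermal papilla, Merkel cells and cartilage reached at most 1.12, 0.533 and 1.06 CPM. The fibroblast list summed to 108 to 109 CPM in males, 78.0 to 155 in castrated males and 23.9 to 68.6 in females. Thy1 led it in 5 of the 6 libraries, with Dcn at 4.49 to 21.0 CPM, Col1a2 at 2.31 to 5.81 and Col3a1 at 0 to 0.213. Among the markers of other cells, 3 of 5 Langerhans cell genes were called higher in females than in males (Cd74, H2-Aa and H2-Ab1), and the summed list ran from 392 to 447 CPM in males, 419 to 491 in castrated males and 1106 to 2379 in females. The Langerhans gene Cd207, however, stayed between 5.01 and 8.46 CPM and was not called. Of the suprabasal list, 2 of 6 genes were called higher in females (Krt1 and Krtdap), with sums of 699 to 895 CPM in males, 1139 to 1205 in castrated males and 1152 to 1479 in females. The bulge list had 1 of 6 called higher (Postn), which carried its sum from 482 to 663 CPM in males and 632 to 648 in castrated males to between 1334 and 1924 in females, while Cd34 itself lay between 1.49 and 3.05 CPM. Of the 8 hair matrix and germ genes, 1 was called higher in females (Msx1) and 1 lower (Hoxc13), and Shh had 0 reads throughout. Of the 4 leukocyte genes, 1 was called higher (Cxcr2). No other marker was called in that comparison, in lists for the outer and upper hair follicle, sebaceous gland, fibroblasts, melanocytes, T cells, endothelium, muscle and Schwann cells. In castrated males against females, Krt79 of the upper follicle, Postn, Cd74, H2-Aa and H2-Ab1 were called lower. In castrated males against males no marker was called. There the outer and upper follicle genes ran from -1.06 for Krt79 (adjusted p = 0.0925 by limma) to -0.02 for Krt17. The part of these cells in the differences given below was not tested.

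In females against males, 940 of the 15413 genes were called, or 6.1%, with 571 higher (3.7%) and 369 lower (2.39%). Of the 34 tested Wnt pathway genes, 3 were called, or 8.82%: the receptor Fzd10 and the ligand acyltransferase Porcn were higher in females, and the secreted inhibitor Sfrp1 was lower. With no filter on low values, which raises the number of genes tested to 27971, none of the 3 calls stood. With so few calls the share of the Wnt genes is not set apart from that of all genes. At an unadjusted p below 0.05 there were 14 of 34, beside 24.9% of all genes. The fold change was negative, lower in females, for 22 of the 34 and positive for 12, where 48.9% of all genes were positive, with a median of -0.14 against -0.01 over all genes tested. Genes with more exon sequence tended to lower values in females, with a Spearman rho between fold change and exon length of -0.13 over 15366 genes and -0.37 over the 34, and the part of length in the median was not tested.

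In castrated males against males, 6 of 15413 genes were called (0.0389%), and none of the 34 by limma either with equal weights or with voom weights. At an unadjusted p below 0.05 stood 2 of the 34, Fzd10 and Ctnnb1, beside 5.93% of all genes. The median fold change of the 34 was 0.06, against 0.00 over all genes. In castrated males against females, 266 genes were called (1.73%), again with none of the 34 by either form of limma, and 10 of the 34 had an unadjusted p below 0.05, beside 21.6% of all genes. Their median was 0.21, against 0.01 over all genes, with 23 positive and 11 negative, where 51.2% of all genes were positive. The 3 comparisons share libraries pairwise, so none of them is an independent repeat of another.

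**Figure D1:**
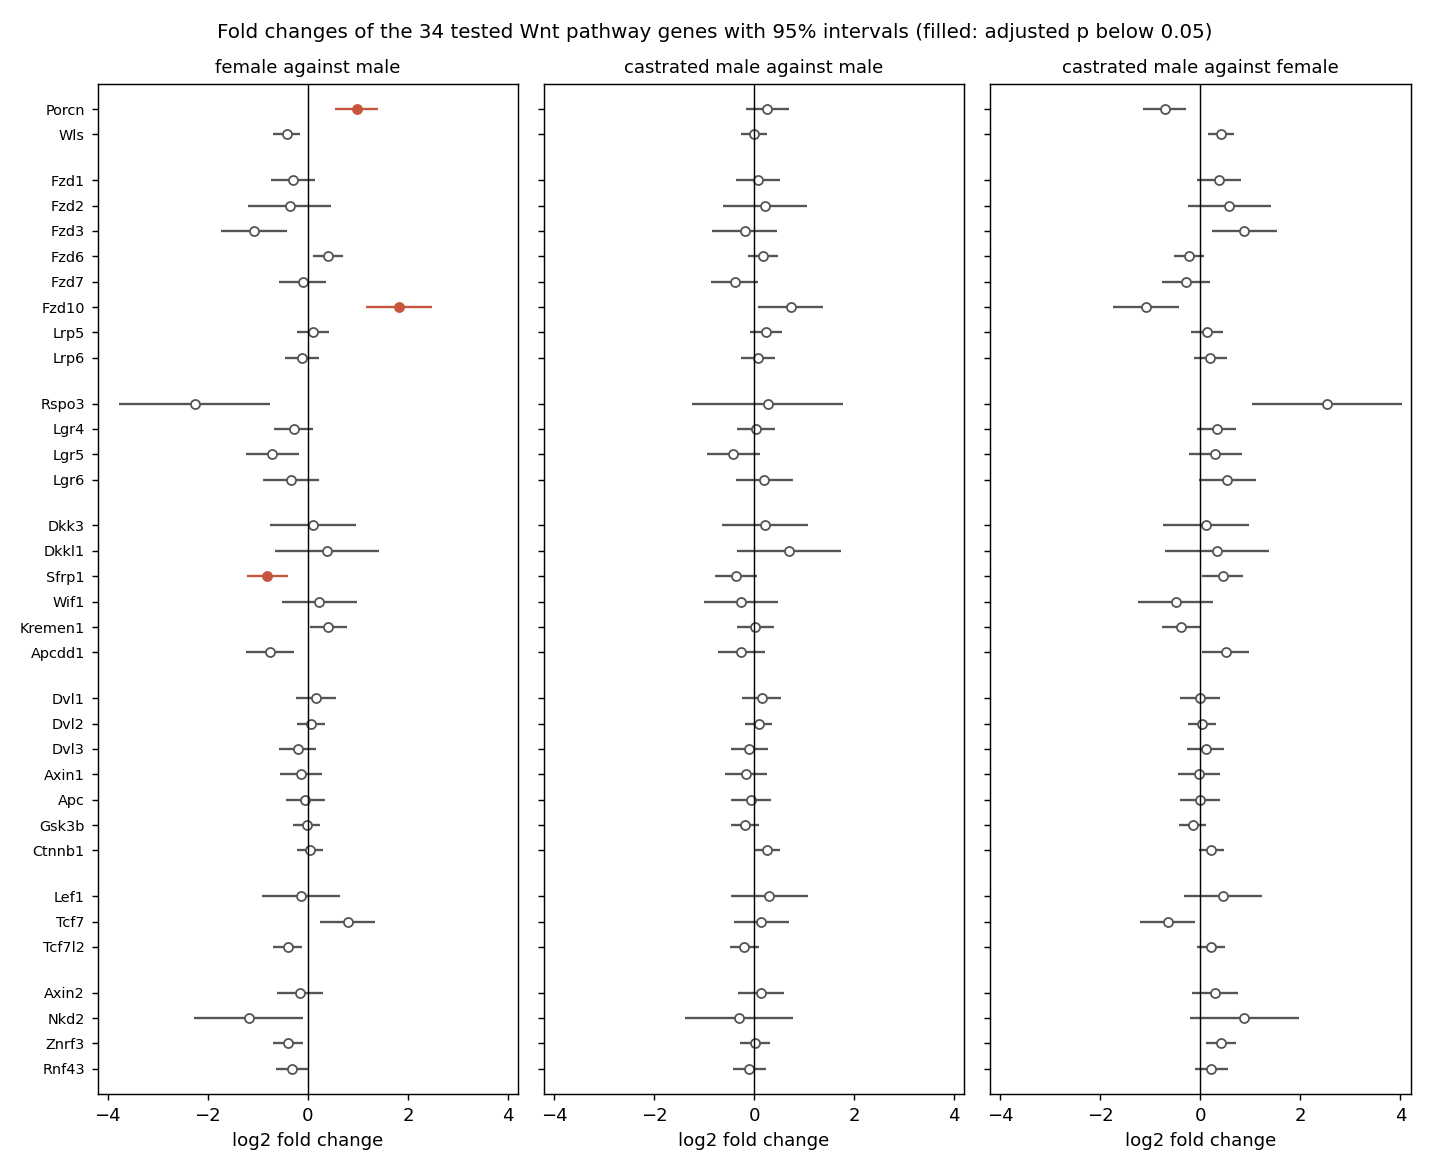
Log2 fold changes (x axis) of the 34 tested Wnt pathway genes (y axis, in the order of their roles) in the 3 comparisons, with 95% intervals from limma and filled red points for an adjusted p below 0.05. Porcn and Fzd10 lie to the right and Sfrp1 to the left in females against males, the other panels hold no filled point, and the widest intervals belong to Rspo3.

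The levels spanned several orders of magnitude. Per kb of exon, Wls stood first at 66.2 ± 9.63 CPM per kb (SD, n = 6 libraries), and even its lowest library (53.8) was above the highest library of any other gene. Next came Ctnnb1 (30.2 ± 2.80), Fzd6 (26.0 ± 3.73), Dvl2 (22.2 ± 1.26), Dkk3 (20.1 ± 6.31) and Gsk3b (13.7 ± 0.993), where each neighbouring pair overlapped over the 6 libraries. Below Gsk3b, 3 feedback targets and a nuclear effector lay level with each other: Znrf3 (10.6 ± 1.51), Tcf7l2 (10.6 ± 1.38), Axin2 (10.5 ± 1.79) and Rnf43 (10.2 ± 1.21), all in CPM per kb. Sfrp1 (9.95 ± 2.68) and Fzd10 (8.80 ± 6.13) followed. Fzd10 spread widely both between the groups and between the 2 female libraries, which stood at 10.6 and 20.3 CPM per kb.

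**Figure D2:**
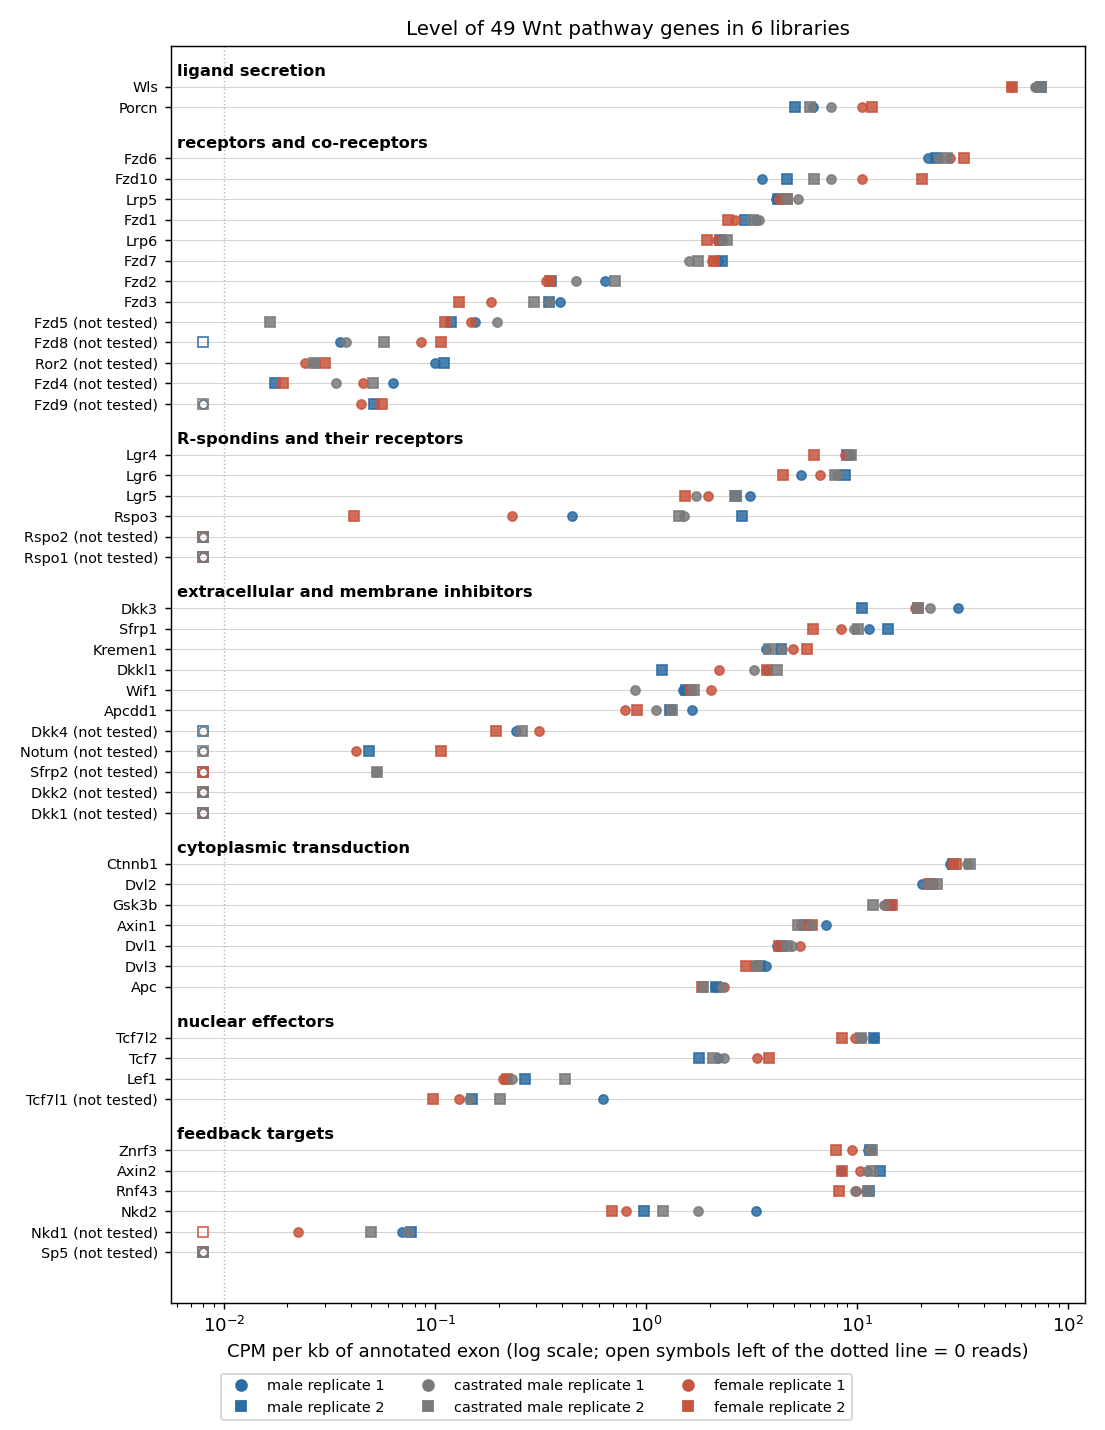
Level of each of the 49 genes in each of the 6 libraries, in CPM per kb of annotated exon on a log axis, grouped by role and ordered by mean level. Colours stand for the groups and symbols for the replicate, and open symbols left of the dotted line stand for 0 reads. Wls lies alone at the right. The genes not tested have the lowest mean levels in the groups that hold them, although male replicate 1 of Tcf7l1 lies to the right of Lef1.

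Both genes of ligand secretion were expressed. Their fold changes of females against males had opposite signs, and only that of Porcn was called. Porcn, the acyltransferase that adds the lipid every Wnt needs for secretion, lies on the X chromosome at 8193848 to 8206525 on the minus strand (GRCm38). It was at 18.5 and 15.2 CPM in males, 22.6 and 18.0 in castrated males and 31.8 and 35.1 in females. Both female libraries lay above all 4 others, and the castrated males overlapped the males. The means were 16.8 ± 2.39 CPM in males, 20.3 ± 3.28 in castrated males and 33.5 ± 2.36 in females (SD, n = 2 each).

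Females exceeded males 1.97-fold (log2 fold change 0.97 ± 0.19, adjusted p = 0.0253). Of 464 tested X-linked genes, 25 were called higher in females (5.39%), against 3.65% of genes on the other chromosomes. Castrated males differed from males by 0.26 (95% interval -0.17 to 0.69) and from females by -0.71 (adjusted p = 0.0933). The call in females was lost without male replicate 2 (0.81, adjusted p = 0.077), without female replicate 2 (0.90, 0.206), without either castrated male (0.0673 without replicate 1 and 0.0536 without replicate 2) and with the 4 compared libraries alone (0.0544). The direction was the same in all 15 alternatives.

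Wls, the membrane protein that escorts Wnts to the surface, was at 619 and 655 CPM in males, 616 and 653 in castrated males and 473 and 477 in females. Males and castrated males overlapped, and both female libraries lay below them. The female difference of -0.42 ± 0.12 did not pass the threshold (adjusted p = 0.0673), although it did with library totals in place of TMM factors (-0.48, adjusted p = 0.0331). For castrated males against males the difference was -0.01 (95% interval -0.27 to 0.26), and against females it was 0.42 (adjusted p = 0.104).

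Of the 13 receptors and co-receptors, 8 were tested: Fzd1, Fzd2, Fzd3, Fzd6, Fzd7, Fzd10, Lrp5 and Lrp6. In females against males 1 was called (Fzd10), with 3 positive and 5 negative fold changes and a median of -0.11. The other 2 comparisons had none called, with medians of 0.13 in castrated males against males and 0.17 in castrated males against females.

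Fzd10, a Frizzled receptor encoded on chromosome 5 at 128600844 to 128604093 on the plus strand (GRCm38), had the lowest p of the 49 genes and ranked 163 by p among all 15413 in females against males. It was at 11.5 and 15.2 CPM in males, 24.3 and 20.3 in castrated males and 34.5 and 65.9 in females. No group overlapped another: the males were lowest, the castrated males in between and the females highest, with the 2 female libraries far apart. The means were 13.3 ± 2.58, 22.3 ± 2.88 and 50.2 ± 22.2 CPM in that order (SD, n = 2 each).

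Females exceeded males 3.51-fold (1.81 ± 0.29, adjusted p = 0.0153). Castrated males exceeded males by 0.73 ± 0.29, which was not called (adjusted p = 0.804, 95% interval 0.07 to 1.39), and their difference from females, -1.08 ± 0.29, was not called either (adjusted p = 0.0937). Female replicate 2, the library with the highest value, decided the first call: without it the fold change was 1.35 (adjusted p = 0.102), while without female replicate 1 it was 2.28 (0.00483) and the difference of castrated males from females was then called (-1.55, 0.0176). No exon of another annotated gene overlaps those of Fzd10.

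Fzd6, the most abundant Frizzled here and a receptor known for orienting hairs through planar cell polarity, was at 104 and 113 CPM in males, 117 and 129 in castrated males and 133 and 155 in females. Its groups kept the same order as those of Fzd10 with no overlap, but with smaller steps. The female difference was 0.40 ± 0.13 (adjusted p = 0.104) and that of castrated males 0.17 ± 0.13 (0.98). Fzd3, the other receptor of planar polarity, was at 5.01 and 4.46 CPM in males, 4.44 and 3.76 in castrated males and 2.35 and 1.67 in females. The female libraries were the lowest, at a difference of -1.07 ± 0.29 that was not called (adjusted p = 0.0638). Castrated males lay between, at -0.19 against males (95% interval -0.85 to 0.47).

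None of the remaining tested receptors was called. Fzd1 ran from 10.3 to 14.4 CPM, Fzd7 from 7.28 to 10.3 and Fzd2 from 1.23 to 2.62 over the 6 libraries. Of these, Fzd7 was lowest in the castrated males (7.28 and 7.97 CPM), at -0.39 against males (95% interval -0.86 to 0.09, adjusted p = 0.917). Fzd2, with few reads, was poorly bounded: castrated males against females differed by 0.58 (95% interval -0.25 to 1.42) and females against males by -0.36 (-1.20 to 0.47). The co-receptors were close to level, Lrp5 between 40.1 and 51.1 CPM and Lrp6 between 26.7 and 33.2. Their female differences were 0.10 (95% interval -0.22 to 0.42) and -0.12 (-0.46 to 0.21).

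Added over the 10 Frizzled genes per kb of exon, the receptors came to 32.0 and 34.3 CPM per kb in males, 38.0 and 39.1 in castrated males and 43.7 and 57.8 in females. The sums kept the order of Fzd10 and Fzd6 without overlap, which is no further result, as these genes make up most of each sum. Fzd6 made up 67.7% and 68.6% of the sum in males, 64.1% and 68.4% in castrated males and 63.1% and 55.8% in females. Fzd10 made up 11.1% and 13.6% in males, 19.7% and 16.0% in castrated males and 24.3% and 35.1% in females. These shares are given as a description and were not tested.

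**Figure D3:**
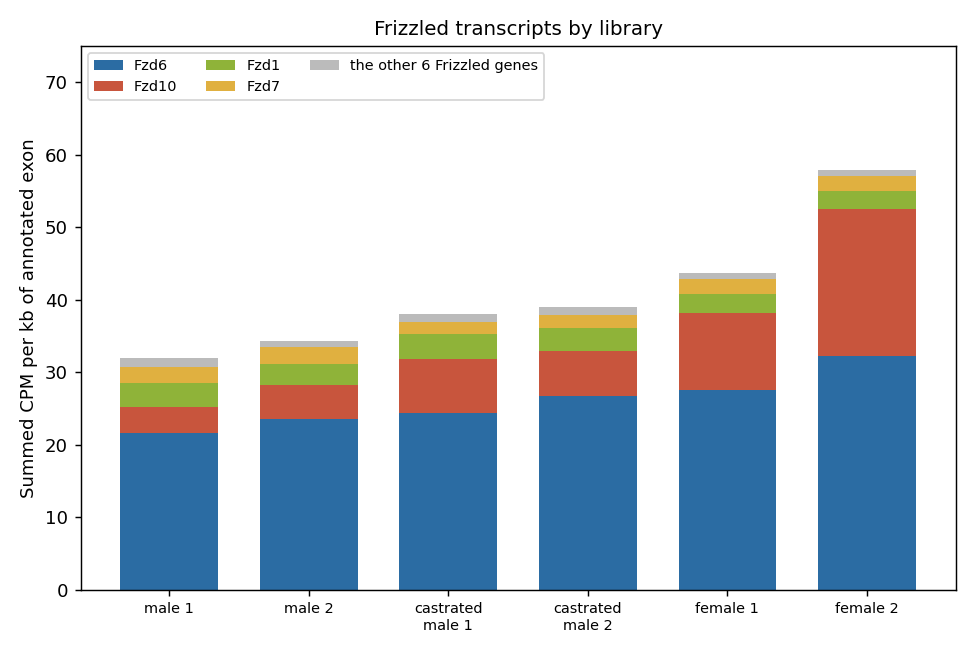
Stacked bars of the Frizzled genes in each of the 6 libraries, as summed CPM per kb of annotated exon (y axis, from 0). Fzd6 forms the base of every bar, and the Fzd10 segment measures 3.54 and 4.66 CPM per kb in males and 10.6 and 20.3 in females.

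Among the R-spondins, Rspo1 and Rspo2 had 0 reads in all 6 libraries, which allows up to 0.307 to 0.385 CPM in a library (3 reads). Rspo3 was at 1.38 and 8.81 CPM in males, 4.66 and 4.44 in castrated males and 0.716 and 0.128 in females. The female libraries were the lowest, with 7 reads and 1 read. The 2 male libraries lay 4.94-fold apart as a ratio of CPM + 0.5, with the castrated males between them. The female difference of -2.26 ± 0.66 was not called (adjusted p = 0.0787), but was called without male replicate 1 (-3.41, 0.00802). Castrated males against females differed by 2.53 ± 0.66 (adjusted p = 0.0903), a difference called when either male library was left out (adjusted p = 0.0135 and 0.0163) and with the 4 compared libraries alone (0.0166). An antisense gene, Gm48159, shares 404 exon bases with Rspo3, and since the strand setting of the counting is not given in the sources used here their reads cannot be told apart.

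All 3 R-spondin receptors were expressed. Lgr4, the most abundant of them per kb, was at 53.8 and 52.5 CPM in males, 54.4 and 55.0 in castrated males and 51.4 and 36.8 in females. A single library, female replicate 2, stood below the rest. Lgr6, a marker of stem cells in skin appendages and between follicles, ran from 30.5 to 60.2 CPM with the females overlapping the males. Lgr5, a marker of hair follicle stem cells, was at 31.7 and 27.4 CPM in males, 17.7 and 27.1 in castrated males and 20.2 and 15.6 in females. The females were below the males, at a difference of -0.71 ± 0.23 that was not called (adjusted p = 0.104), while 1 castrated male lay within the female range and the other just below the lower male. Of the 4 tested genes of this role none was called in any comparison.

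Of the 11 inhibitors, 6 were tested (Dkk3, Dkkl1, Sfrp1, Wif1, Kremen1 and Apcdd1). In females against males 1 was called, Sfrp1, and the 6 had 4 positive and 2 negative fold changes. None was called in castrated males against males or against females.

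Sfrp1, a secreted decoy with a Frizzled-like domain that binds Wnts, lies on chromosome 8 at 23411502 to 23449632 on the plus strand (GRCm38). It was at 49.9 and 61.6 CPM in males, 42.1 and 44.1 in castrated males and 36.5 and 27.1 in females. The order ran opposite to that of Fzd10, with males highest, castrated males between and females lowest, and with no overlap. The means were 55.7 ± 8.28, 43.1 ± 1.40 and 31.8 ± 6.68 CPM in that order (SD, n = 2 each).

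Males exceeded females 1.75-fold (female against male -0.81 ± 0.18, adjusted p = 0.0384). Castrated males differed from males by -0.36 (95% interval -0.77 to 0.05, adjusted p = 0.896) and from females by 0.45 (0.2). The female call was lost in 7 of the 15 alternatives, among them leaving out male replicate 2 (-0.68, adjusted p = 0.125), female replicate 2 (-0.60, 0.248), castrated male replicate 1 (0.103) or castrated male replicate 2 (0.094). It was also lost with the 4 compared libraries alone (0.0939). The direction was the same throughout.

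Apcdd1, a membrane-bound inhibitor known from inherited hair loss, was at 21.2 and 16.7 CPM in males, 14.3 and 17.2 in castrated males and 10.2 and 11.7 in females. Both female libraries were the lowest, at a difference of -0.76 ± 0.21 (adjusted p = 0.0673, not called). Kremen1, a receptor through which Dkk proteins remove Lrp6, was at 28.7 and 33.7 CPM in males, 34.0 and 29.5 in castrated males and 38.5 and 44.7 in females. Its female libraries were the highest, at a difference of 0.41 ± 0.16 that was not called (adjusted p = 0.166).

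Dkk3, a divergent Dickkopf protein and the inhibitor with the highest mean level per kb, was at 101 and 35.4 CPM in males, 74.4 and 65.4 in castrated males and 63.0 and 65.5 in females. The 2 males lay above and below every other library, 2.83-fold apart as a ratio of CPM + 0.5. In male replicate 2, Dkk3 (10.5 CPM per kb) was below Sfrp1 (14.1). The female difference was 0.10 ± 0.38 with both males, 0.86 with the first left out (adjusted p = 0.0285) and -0.68 with the second left out (0.0542), so these libraries give no direction for Dkk3. Dkkl1, its close relative, had a like gap between the males (5.86 and 1.88 CPM) and ran from 3.48 to 6.60 CPM in the other 4 libraries. Wif1, which binds Wnts outside the cell, ran from 2.16 to 4.91 CPM.

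The other 5 inhibitors had too few reads to test. Dkk1 and Dkk2 had 0 reads in all 6 libraries. Dkk4 had at most 4 reads in a library, Notum, which strips the lipid from Wnts, at most 2, and Sfrp2 at most 1.

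**Figure D4:**
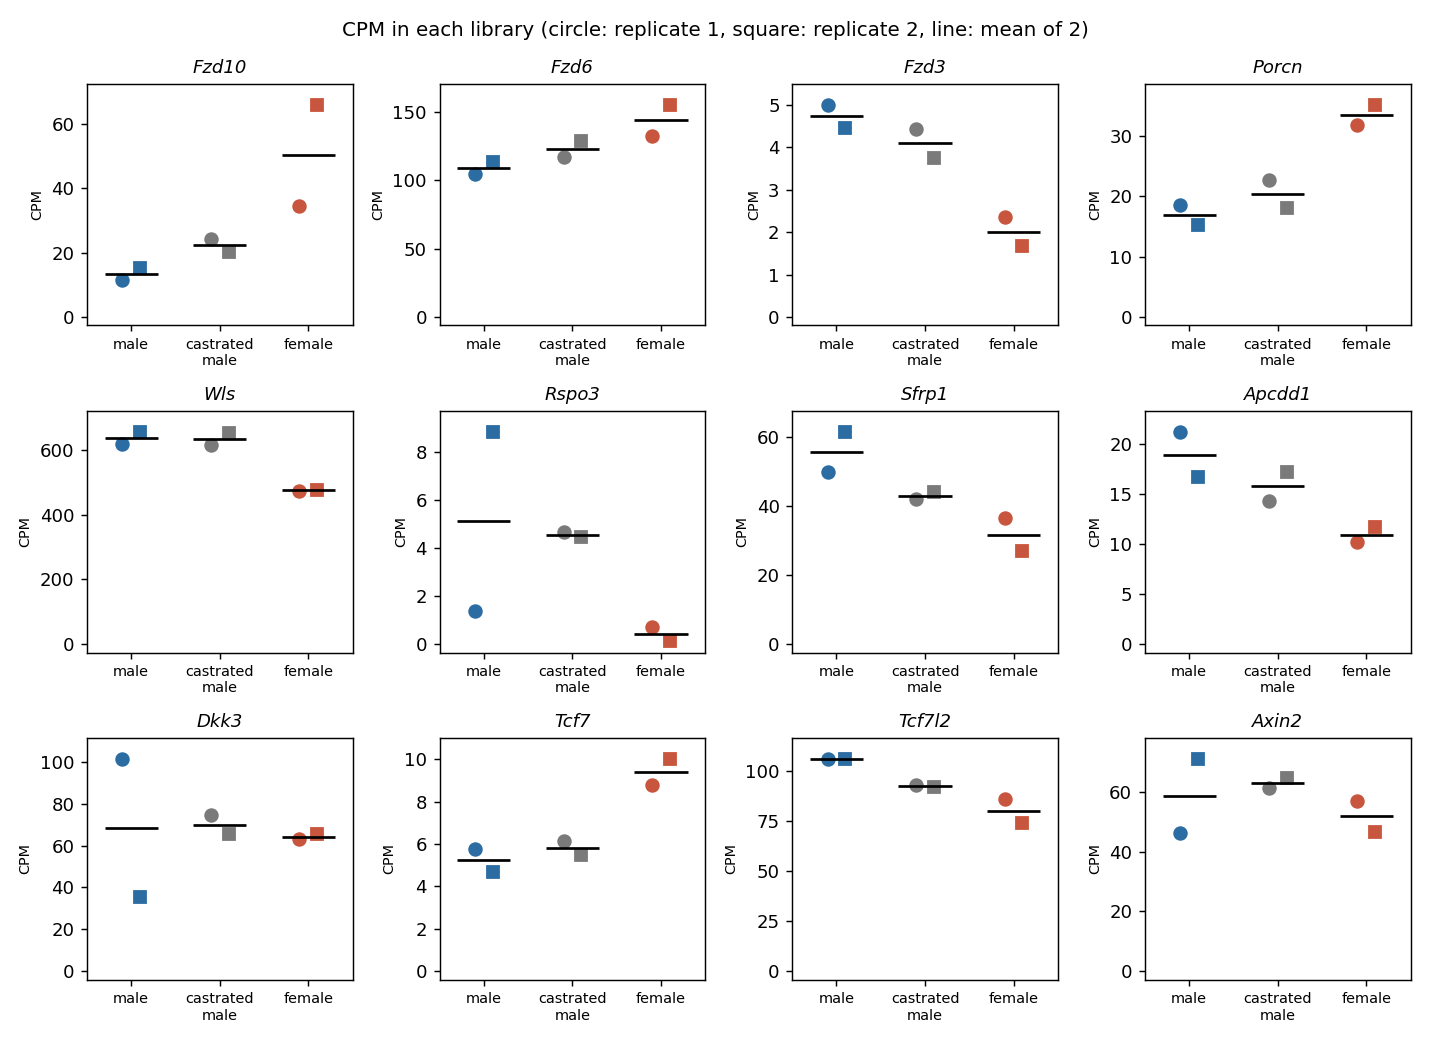
CPM of 12 Wnt pathway genes in each library (y axes from about 0, a scale for each gene), with circles and squares for replicates 1 and 2 and a line at the mean of the 2. Fzd10 and Porcn are highest in the females and Sfrp1 is lowest there, while the 2 male libraries lie at opposite ends for Dkk3 and far apart for Rspo3.

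All 7 genes of cytoplasmic transduction were tested and none was called in any comparison. Their fold changes of females against males ran from -0.21 to 0.16, the narrowest range among the 7 roles. Ctnnb1, which encodes beta-catenin, a partner of cadherins as well as the carrier of the Wnt signal, was at 143 and 147 CPM in males, 171 and 178 in castrated males and 146 and 153 in females. The castrated males were above the other 4 libraries, and females and males overlapped. The difference of castrated males from males was 0.26 ± 0.11, with an unadjusted p of 0.0431 and an adjusted p of 0.824. Ctnnb1 shares 759 exon bases with Ulk4 on the other strand, and Ulk4 itself stood at 56.1 and 58.3 CPM in males, 67.4 and 74.5 in castrated males and 58.2 and 63.3 in females. The same order is thus found in both genes, whose reads in the shared bases cannot be told apart.

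Dvl2, the most abundant Dishevelled gene per kb, ran from 127 to 151 CPM, with a female difference of 0.06 (95% interval -0.22 to 0.34). It shares 1151 exon bases, 18.3% of its own, with Acadvl on the other strand. Acadvl itself ran from 197 to 239 CPM, and the reads of both genes in the shared bases cannot be told apart. Gsk3b, the kinase that marks beta-catenin, ran from 117 to 144 CPM, with a female difference of -0.02 (-0.30 to 0.25). The scaffold Axin1 (20.2 to 27.2 CPM), Apc (29.6 to 37.5 CPM), Dvl1 (20.8 to 26.8 CPM) and Dvl3 (19.0 to 23.8 CPM) likewise showed differences within 0.21 of 0 between females and males.

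Of the 4 nuclear effectors, 3 were tested and none was called. Tcf7l2, the TCF factor with the highest level here, was at 106 and 106 CPM in males, 92.6 and 92.0 in castrated males and 85.7 and 74.1 in females. The 3 groups did not overlap, and the males and castrated males were each nearly identical within the group. The female difference of -0.40 ± 0.13 was not called (adjusted p = 0.0909), but was without female replicate 1 (-0.50, 0.0466). Tcf7, known also from T cells, was at 5.75 and 4.70 CPM in males, 6.14 and 5.47 in castrated males and 8.79 and 10.0 in females. Its females were the highest, the reverse of Tcf7l2, by 0.79 ± 0.24 (adjusted p = 0.0863, not called). The summed T cell markers ran from 92.7 to 101 CPM in males, 74.0 to 151 in castrated males and 14.5 to 70.4 in females, a sum carried by Thy1 (8.90 to 144 CPM), which is also on the fibroblast list. The other T cell genes were low: Cd3e ran from 1.23 to 4.47 CPM, Cd3g from 0.920 to 3.97 and Trdc from 1.41 to 4.15, with females and males overlapping in each. Trac had 3 and 4 reads in females, 0 in both males and 0 and 1 in castrated males. The part of T cells in the Tcf7 values was not tested.

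As a share of the 4 TCF/LEF genes per kb, Tcf7 came to 14.5% and 12.6% in males, 17.6% and 15.8% in castrated males and 24.9% and 30.3% in females. Tcf7l2 came to 79.9% and 84.5% in males, 79.5% in each castrated male and 72.6% and 67.2% in females. Lef1, the factor of the hair matrix and dermal papilla, was low at 1.84 to 3.64 CPM. Tcf7l1, the TCF factor known from bulge cells and often a repressor, had 23 reads in male replicate 1 and between 3 and 7 in the other 5 libraries, and was not tested.

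The feedback targets are the genes most often used to read the strength of canonical Wnt signalling. Of the 6, Axin2, Nkd2, Znrf3 and Rnf43 were tested, and none was called in any comparison. With all libraries the 4 had negative fold changes in females against males, with a median of -0.35, but that of Axin2 turned positive without male replicate 2 (0.13, adjusted p = 0.739). Axin2 and Sp5, both known targets, are shown here for their contrast in level: Axin2 was among the 9 most abundant of the 49 genes per kb, level with Znrf3, Tcf7l2 and Rnf43, while Sp5 had 0 reads in all 6 libraries. The 250 bases before the RefSeq start (GRCm38.p6) are given 5′ to 3′ on the plus strand, for Axin2 at chr11:108920099-108920348 and for Sp5 at chr2:70474673-70474922, with capitals for matches to the TCF/LEF core.
Axin2: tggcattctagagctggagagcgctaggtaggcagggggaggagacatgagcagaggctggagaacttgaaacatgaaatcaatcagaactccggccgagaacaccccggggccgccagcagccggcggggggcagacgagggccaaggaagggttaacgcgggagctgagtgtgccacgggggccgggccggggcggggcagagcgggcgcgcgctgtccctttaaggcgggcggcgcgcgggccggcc
Sp5: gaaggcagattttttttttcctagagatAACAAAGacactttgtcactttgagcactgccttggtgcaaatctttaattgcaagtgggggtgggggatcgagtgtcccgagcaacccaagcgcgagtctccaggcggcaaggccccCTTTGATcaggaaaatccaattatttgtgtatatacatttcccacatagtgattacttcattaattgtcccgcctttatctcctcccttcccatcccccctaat
The letters searched were CTTTGAA or CTTTGAT, and also CTTTGTA or CTTTGTT, on both strands. Sp5 holds 2 matches, at 222 and 104 bases before the start, and Axin2 holds none in this window. Of 32851 windows of this length over all genes, 14.8% hold a match, and of 37 windows found for 30 of the 49 genes, 5 do (in Fzd7, Sp5, Lef1, Dkk1 and Tcf7l2). A match describes the letters and does not show a bound site.

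Axin2, a negative regulator of the pathway and its most used target, was at 46.2 and 70.8 CPM in males, 61.2 and 64.6 in castrated males and 56.7 and 46.7 in females. The 2 males enclosed both castrated males, and overlapped the females. The female difference was -0.15 ± 0.20 (95% interval -0.61 to 0.31, adjusted p = 0.686) and that of castrated males 0.13 ± 0.20 (-0.33 to 0.59). These intervals hold the changes that the values allow, and are not limits of detection.

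Znrf3, a ubiquitin ligase that clears Frizzled from the membrane, was at 88.9 and 90.9 CPM in males, 90.0 and 92.7 in castrated males and 74.7 and 62.8 in females. Males and castrated males overlapped within a narrow range, and both females lay below. The female difference of -0.39 ± 0.13 was not called (adjusted p = 0.112). It was called without female replicate 1 (-0.51, 0.0489), as was the difference between castrated males and females (0.54, 0.0495). Its partner ligase Rnf43 was at 71.9 and 74.8 CPM in males, 64.0 and 73.8 in castrated males and 64.6 and 54.0 in females. The females were below the males, at -0.31 ± 0.14 (adjusted p = 0.221, not called).

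Nkd2, an inhibitor of Dishevelled, was at 16.1 and 4.70 CPM in males, 8.53 and 5.81 in castrated males and 3.89 and 3.33 in females. Male replicate 1 stood far above all other libraries, and the other male lay close to the castrated and female range. The female difference of -1.18 ± 0.48 was not called (adjusted p = 0.172), except without male replicate 2 (-2.04, 0.019). Nkd1 had at most 3 reads in a library and was not tested.

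The 15 untested genes were Fzd4, Fzd5, Fzd8, Fzd9, Ror2, Rspo1, Rspo2, Dkk1, Dkk2, Dkk4, Sfrp2, Notum, Tcf7l1, Nkd1 and Sp5. Of these, 5 had 0 reads in every library (Rspo1, Rspo2, Dkk1, Dkk2 and Sp5) and 10 had some. Ror2, a co-receptor of the branch that does not use beta-catenin, had 4 reads in each male library and 1 in each of the other 4. Fzd5 had between 1 and 12 reads, Fzd8 at most 5, Fzd4 at most 4 and Fzd9 at most 1. Such counts allow no comparison between groups.

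Groups that did not overlap were common over the pathway, and also over all genes. In females against males, 7 of the 34 genes had both females above both males (26.6% of all genes) and 16 had them below (27.2% of all genes). For castrated males against males, 14 of the 34 did not overlap (35.5% of all genes), and for castrated males against females 24 of the 34 (57.7% of all genes). The spread within a group was taken as the ratio of CPM + 0.5 between its 2 libraries. It was wider than 2-fold for 4 of the 34 in males (Rspo3, Nkd2, Dkk3 and Dkkl1), against 5.59% of all genes. It was so for none of the 34 in females or castrated males, where 4.01% and 1.66% of all genes spread that far. By CPM alone, however, Rspo3 spread wider than 2-fold in females (0.716 and 0.128 CPM), where its ratio of CPM + 0.5 was 1.94.

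A list of 70 further genes of Wnt signalling, such as other modulators, nuclear cofactors and planar polarity genes, had 52 tested. Between females and males, 4 were called higher in females and 2 lower, or 11.5%, beside 6.1% of all genes (3.7% higher and 2.39% lower), with a median of -0.08. Of the 6 calls, 2 stood with the 4 compared libraries alone and 0 with no filter on low values. Some calls were also lost when any single library other than female replicate 1 was left out. Those of Sostdc1 and Prickle2 were lost in 2 of the 15 alternatives, those of Btrc and Cd44 in 7, that of Vangl1 in 8 and that of Celsr2 in 11. Sostdc1, a secreted modulator that binds BMPs and the Wnt co-receptors, was at 127 and 146 CPM in males, 146 and 205 in castrated males and 305 and 361 in females. Both females lay above every other library. The female difference was 1.29 ± 0.18 (adjusted p = 0.00884), and castrated males were lower than females (-0.94 ± 0.18, 0.0415).

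Prickle2, a gene of planar cell polarity, was at 20.2 and 18.7 CPM in males, 10.6 and 14.4 in castrated males and 7.46 and 6.54 in females. It was lower in females than in males (-1.41 ± 0.22, adjusted p = 0.0143). Vangl1, a membrane protein of the same system, was at 17.5 and 16.2 CPM in males, 14.4 and 16.5 in castrated males and 27.0 and 31.2 in females. It was higher in females than in males (0.77 ± 0.18, 0.0413) and lower in castrated males than in females (-0.89 ± 0.18, 0.0482). Celsr2, a cadherin known from planar polarity, was higher in females by 0.51 ± 0.12 (0.0483), with 80.4 and 76.6 CPM in males, 82.9 and 75.4 in castrated males and 107 and 117 in females. For Vangl1 and Celsr2, castrated males lay in the range of the males or just outside it.

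The remaining calls of that list concern other steps. Btrc, the ligase subunit that recognises marked beta-catenin, was at 42.4 and 38.9 CPM in males, 31.6 and 32.9 in castrated males and 25.1 and 18.1 in females. It was lower in females than in males (-0.92 ± 0.18, adjusted p = 0.0276), with the castrated males between. Cd44, a hyaluronan receptor and a known Wnt target, was at 301 and 301 CPM in males, 293 and 351 in castrated males and 442 and 576 in females. It was higher in females than in males (0.74 ± 0.16, 0.0301). Ctnnbip1, which blocks the binding of beta-catenin to TCF factors, was at 22.6 and 23.6 CPM in males, 33.4 and 32.1 in castrated males and 19.5 and 18.3 in females. It was highest in castrated males, and higher there than in females (0.78 ± 0.16, adjusted p = 0.0487). In that comparison 1 of the 52 was thus called higher in castrated males and 2 lower, where 0.571% and 1.15% of all genes were. None of these 3 calls stood with voom weights, with no filter, without female replicate 2 or without either castrated male, and that of Sostdc1 alone stood with the replicate number as a block. In castrated males against males none of the 52 was called by limma, and 5 had an unadjusted p below 0.05.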

How the data were processed

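RNA of 6 libraries was counted per gene. Per the submitters' processing notes, the builds were GRCm38 and mm10 and the tools HTSeq 0.11.1, Picard, STAR 2.7.5a and FastQC. The sources used here do not give the annotation, the strand setting or the scaling. The values deposited by the authors are scores: in each library they add up to 20000000, apart from rounding. Dividing by the smallest step in a column gave whole reads, with 100% of values within 0.5 of a multiple of the step, against 42% to 48.2% of arbitrary integers. Between 8412487 and 9648154 reads were recovered, and 1 read is worth 0.102 to 0.128 CPM. Intervals and read limits of single libraries cover counting error only.

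CPM used TMM factors over all genes. A gene entered the test with 1.16 CPM or more (10 reads at median depth) in 2 or more libraries and 15 or more reads over all 6. Tests were made on log2(CPM + 0.5) in limma 3.58.1 (R 4.3.3). All 6 libraries entered a fit with a mean for each group, an intensity trend and 3 residual degrees of freedom. All p-values are two-sided. A log-scale test was used because the deposited scores are scaled and rounded, and no count model was run on the recovered reads. The procedure was tested on simulated data. Exon lengths and loci came from GENCODE M21 and promoters from RefSeq (GRCm38.p6). The second male library is numbered by its title, since its library name carries a 3.

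The genes and lists were chosen with earlier results of these data known. Every one of the 49 genes is accounted for. By rule, values in each library are given for called genes and for the most abundant gene of each role, and the other pathway genes are named where called. Genes given in full beyond that were chosen after their values were seen. Alternatives varied the pseudocount, filter, scaling, libraries and block, and voom weights were added after seeing the data.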

Additional observations from a re-analysis of the deposited data

How the results depend on the processing

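With 2 libraries per group, 1 library could decide a call. In females against males, 3 of the 34 Wnt genes were called. The count was 0 with no low-value filter (adjusted p = 0.0723 for Fzd10, 0.0836 for Porcn and 0.105 for Sfrp1), 1 with the 4 compared libraries alone, 4 with library totals in place of TMM factors, 3 with voom weights and from 0 (without female replicate 2) to 5 when leaving out 1 library. Over all genes the 940 calls became 103 with no filter, 265 with the 4 libraries alone, and 49 (without female replicate 2) to 1773 (without female replicate 1). In castrated males against males the count of Wnt genes was 0 in all 15 alternatives. The 6 calls over all genes became 11 with a pseudocount of 2, 2 with no filter and 1 to 74 when leaving out 1 library. In castrated males against females the 0 Wnt genes became 1 (Rspo3) with the 4 libraries alone and 0 to 2 when leaving out 1 library. The 266 calls over all genes became 33 with no filter, 88 with voom weights, 560 with the 4 libraries alone and 21 to 1323 when leaving out 1 library. The unfiltered fit tests 27971 genes, and the cause of these shifts, that without the filter included, was not tested.

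The direction turned under at least 1 alternative for 8 of the 34 Wnt genes in females against males, for 15 in castrated males against males and for 6 in castrated males against females. In females against males these were Ctnnb1 with library totals (-0.015), Dvl2 and Axin1 without male replicate 1 (-0.014 and 0.036), Axin2 and Dkkl1 without male replicate 2 (0.13 and -0.36), Gsk3b without female replicate 1 (0.034), Apc without female replicate 2 (0.12), and Dkk3 without male replicate 2: leaving out 1 library gave -0.68 to 0.86 in females and -0.54 to 0.97 in castrated males, each against males. For Wls in castrated males against males it turned with library totals (0.012), and leaving out 1 library gave -0.045 to 0.047, positive without male replicate 2 and without castrated male replicate 1.

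Deviations of same-numbered libraries from their group means had correlations of -0.15, -0.01 and 0.19 for the 3 pairs of groups. With 2 libraries per group, these values cannot decide whether the numbers pair the libraries. With the replicate number as a block, the calls were 817, 5 and 162 over all genes in the 3 comparisons, and Porcn and Fzd10 stayed called among the Wnt genes while Sfrp1 did not (adjusted p = 0.0572). A lone library left in a group is assumed to vary like the other groups. The planned edgeR and DESeq2 tests were left out, since the deposited values are scaled and rounded scores, and the reads recovered from them entered only CPM and the fit with voom weights. Differences of genes with few reads could be missed at this depth, although some such genes were called, as was Cxcr2 with 9 and 6 reads in males.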
